A study of Mus musculus with 8 samples.

Results

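The 56 genes described here encode the machinery of Wnt signalling: 18 Wnt ligands, 14 receptors, 9 secreted antagonists, 7 genes of the R-spondin branch, 4 cytoplasmic components and 4 TCF/LEF transcription factors. They were taken by name, through the accession of each array probe, and the brightest probe stood for a gene with several. All 56 were among the 33623 genes and unnamed features that could be tested, 18170 of which had a symbol. The samples were tubules of the mesonephros, the transient embryonic kidney, microdissected from frozen sections of mouse embryos that had been stained with toluidine blue. The strain is given as C57/BL6 throughout. The 5 wild-type samples are described by the study as senescent, and the 3 samples labelled p21KO -/- (p21 knockout) as non-senescent. p21, the product of Cdkn1a, is a cyclin-dependent kinase inhibitor, and the comparison asks how expression differs where this inhibitor of the cell cycle is missing. Neither embryonic age nor the design of the p21 allele is stated, and nothing says that the samples are separate embryos, so the p-values reflect only the spread among these samples, which may be technical. Each sample was hybridised in 1 colour to its own array, and a level is the log2 signal minus the 75th percentile of that array.

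Wnt proteins are secreted lipid-modified ligands that bind Frizzled receptors and, with the co-receptors Lrp5 and Lrp6, stop the destruction of β-catenin, which then enters the nucleus and activates genes together with TCF/LEF factors. Axin2, Lef1, Lgr5 and Nkd1 are widely used as readouts of this branch because β-catenin activates them in many tissues, while Wnt5a, Wnt11, Ror1 and Ror2 are mostly linked to signalling without β-catenin. In the developing urogenital system Wnt9b is made by the nephric duct and Wnt4 by the forming tubules, where both are known for driving mesenchyme to form epithelium.

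On each array 82.2% to 89.2% of the probes were well above background, with 0 saturated spots, and the number of arrays limits the precision. Cdkn1a itself differed by −0.19 (standard error 0.54, limma adjusted p = 0.950), so its level was no lower in the arrays labelled knockout beyond the spread, and nothing in the labels says whether its probes lie in the deleted part. It is called labelled p21-null for that reason, and each direction rests on that label. Of 13 tubule and duct markers, 12 could be tested and 11 were well above background on all 8 arrays. Across all features 0 reached an adjusted p under 0.05 in limma, and 3401 (10.1%) had an unadjusted p under 0.05.

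Of the 56 Wnt pathway genes, 49 were well above background on all 8 arrays, as were 28085 of the 33623 features tested. In wild type Wnt3, Rspo2 and Frzb were above it on 3 of 5 arrays, Wnt3a on 2 and Wnt2b on 4. In labelled p21-null Wnt3 and Wnt3a were above it on 1 of 3 arrays, Rspo2 on 0, and Frzb and Wnt2b on all 3. Fzd1 and Tcf7l1 each lacked 1 wild-type array (replicate 2 and replicate 1) because the spot was marked as an outlier and left out. In the tissue as sampled, transcripts of nearly the whole pathway were therefore above background in both groups. In such bulk samples fewer cells of a type and less RNA per cell cannot be told apart.

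Labelled p21-null replicate 2 stood apart from replicates 1 and 3 of its group for these genes. In it 27 of 56 members (48.2%) lay over 1 log2 unit above the mean of the other arrays of the group and 4 lay over 1 below, against 13.5% and 9.60% of all features. Among the wild-type arrays, replicate 3 had the largest share of members over 1 below the mean of its group, 20 of 56 (35.7%), against 15.6% of all features. The median deviation of the members from their own mean over 8 arrays was 0.34 in labelled p21-null replicate 2 and −0.54 and −0.62 in replicates 1 and 3, while the wild-type arrays ranged from −0.33 to 0.34. The counts, and the genes for which it fell on the other side of its group, are given with and without it.

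**Figure D1:**
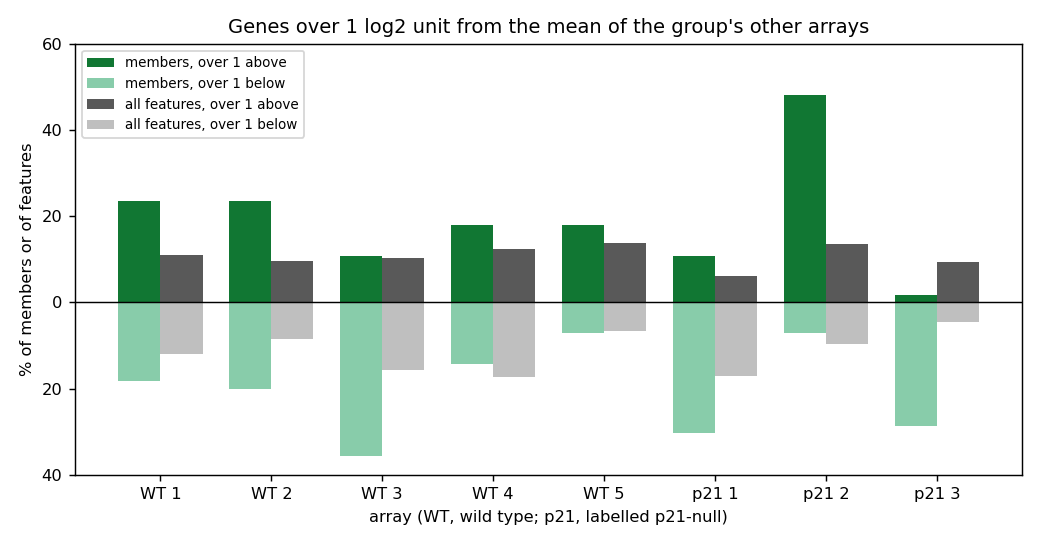
Share of the Wnt pathway members (green) and of all features (grey) that lay over 1 log2 unit above (upward bars) or below (downward bars) the mean of the other arrays of the same group, for each of the 8 arrays. Labelled p21-null replicate 2 has 48.2% of members above, against 13.5% of all features.

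The members leaned lower in the labelled p21-null arrays, without any single gene passing the adjusted threshold. Of 56, 41 (73.2%) had a negative difference (labelled p21-null minus wild type) and 15 a positive one, beside 52.3% negative among all features. Their median difference was −0.43, against −0.03 for all features. At an unadjusted p under 0.05 there were 6 members (10.7%), close to the background of 10.1%, so the number of such genes is not a result about the pathway. They were Wnt9a, Fzd4, Sfrp5, Lgr5 and Lef1 on the lower side, where the background was 3.91%, and Fzd5 on the higher side, where it was 6.20%. The groups did not overlap for 2 of the 54 members measured on every array, against 6.88% of all features: Fzd4 on the lower side (background 2.44%) and Fzd5 on the higher (4.44%). The smallest adjusted p of a member was 0.340, for Lgr5.

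The counts turned on single arrays. Without labelled p21-null replicate 2, 14 of 56 members (25.0%) had an unadjusted p under 0.05, 12 lower and 2 higher, against a background of 11.3%, and the groups did not overlap for 16 of 54, 14 of them lower, against 17.7%. Without labelled p21-null replicate 3 Lgr5 alone (1.79%) was under 0.05, against 5.20%, and 2 members had groups that did not overlap, against 9.55%. The median difference of the members was −0.77 without replicate 2, and −0.28 without either replicate 1 or replicate 3, where 34 of 56 were lower. With slide as a block it was −0.56. The arrays lay on 3 slides that each held both groups, and within slides 1, 2 and 3 the median difference was −0.60, 0.18 and −0.92. Slide 2 is the one that held labelled p21-null replicate 2, with wild-type replicate 4 as its only partner. Slide 3 held labelled p21-null replicate 3 with wild-type replicate 5 only, and slide 1 held labelled p21-null replicate 1 with wild-type replicates 1 to 3. Every within-slide value given here thus rests on 1 labelled p21-null array.

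**Figure D2:**
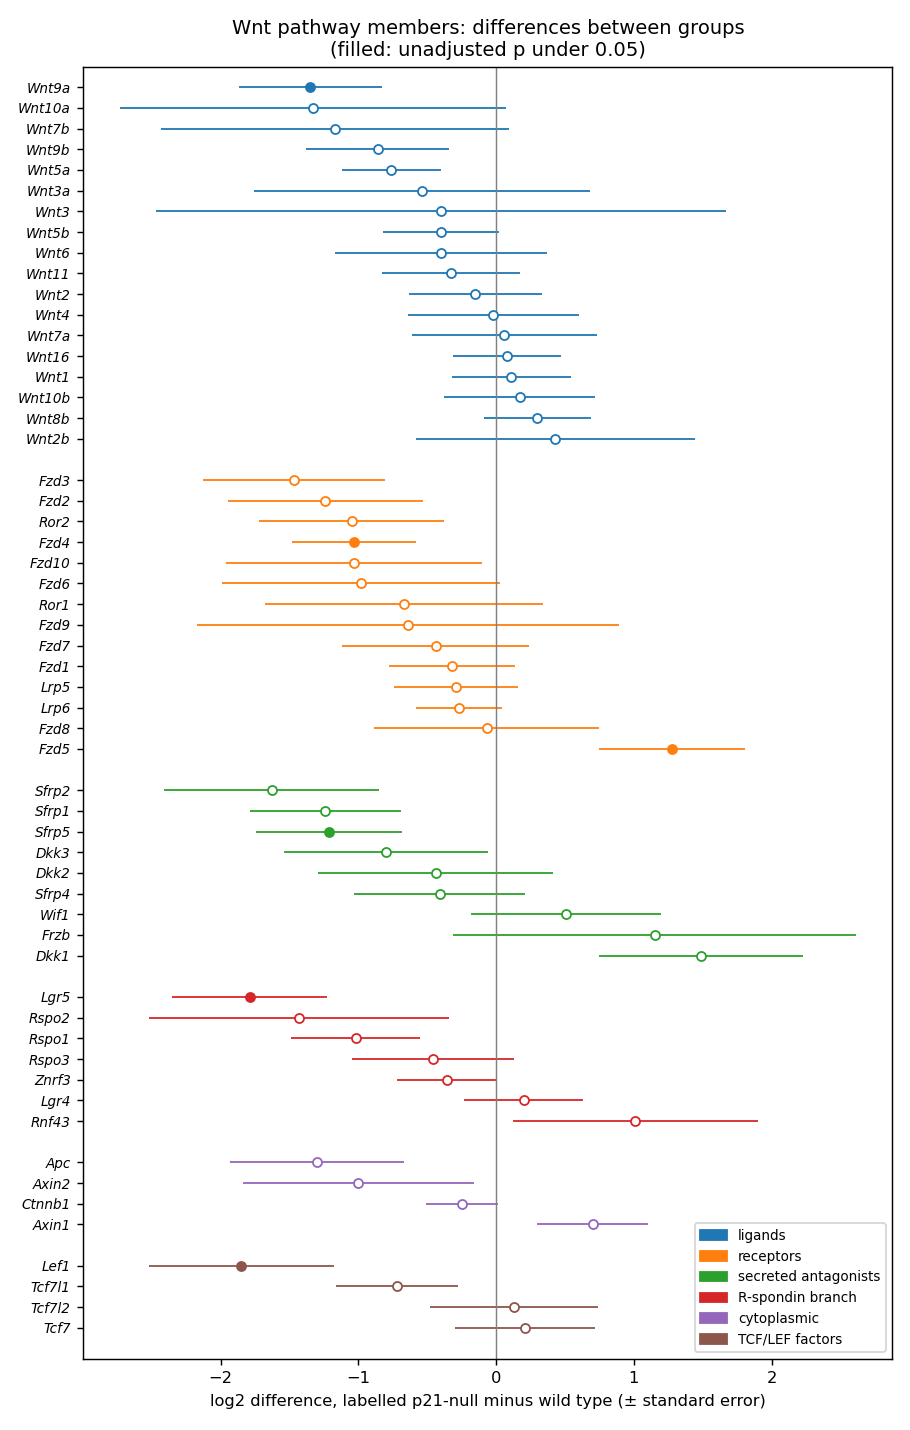
Log2 difference (labelled p21-null minus wild type, x axis) with its standard error for each of the 56 members, sorted within 6 role groups. Filled points have an unadjusted p under 0.05, and 41 of the 56 points lie below 0.

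Markers of other cell types also stood higher or lower with the groups. Liver markers were higher for 12 of 12 genes, 11 of them at an unadjusted p under 0.05, beside 6.20% of all features on that side. Their summed level was 15.9 to 169 times the array's 75th percentile in wild type and 137 to 294 in labelled p21-null. Erythroid markers were higher for 11 of 12, 10 of them under 0.05 (summed level 42.9 to 194 against 140 to 235). Macrophage markers were higher for 9 of 11, 7 of them under 0.05 (19.7 to 31.1 against 30.9 to 42.2). Neural and glial markers were lower for 13 of 13, 4 of them under 0.05, beside 3.91% of all features on that side (19.2 to 80.8 against 12 to 13.2). Stromal markers were lower for 11 of 14, 2 of them under 0.05 (66.0 to 173 against 53.6 to 152). Tubule and duct markers were lower for 8 of 12, 1 of them under 0.05 (8.52 to 34.4 against 10.8 to 14.5). Markers of gonad and coelomic epithelium were lower for 7 of 13, 3 of them under 0.05 (117 to 185 against 121 to 153). That sum was mostly Foxl2, at log2 levels of 6.79 to 7.46 in wild type and 6.88 to 7.19 in labelled p21-null, so it says little of the list. Gata4, Cyp11a1 and Upk3b of that list were not well above background on every array, and Krt19 lacked values on some arrays. Endothelial markers were lower for 2 of 8, 0 of them under 0.05 (4.61 to 14.9 against 5.70 to 12.9). All liver, erythroid, macrophage, stromal and endothelial markers tested were well above background on every array, while Foxd3, a defining gene of neural crest, was above it on few arrays of either group (2 of 5 and 1 of 3). Many Wnt pathway genes are expressed in stroma and neural tissue as well as in tubules, and the part of these cell types in the differences was not tested.

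**Figure D3:**
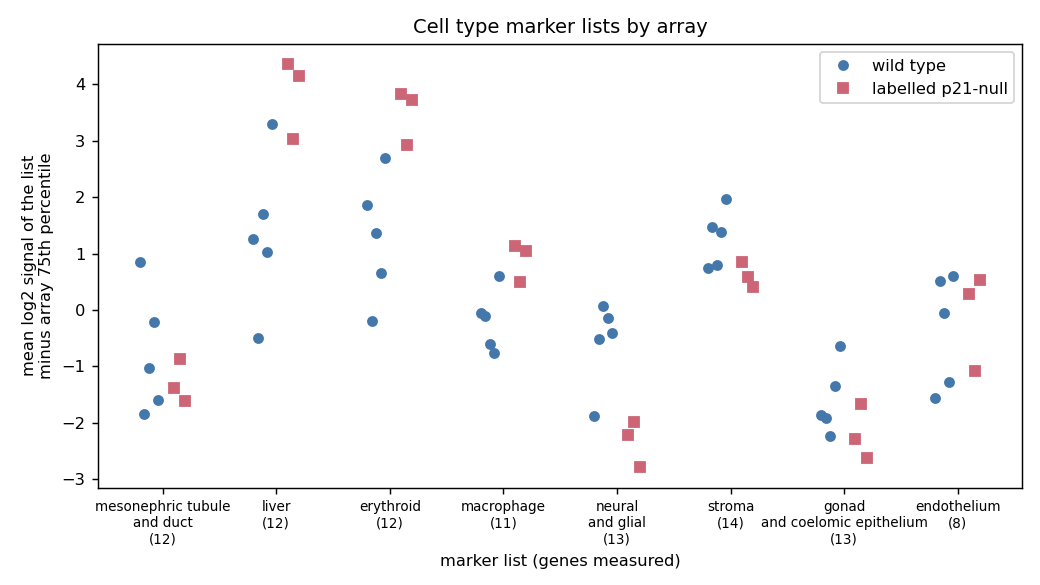
Mean log2 signal of each marker list, relative to the array's 75th percentile, with 1 point per array (circles, 5 wild type; squares, 3 labelled p21-null) and the number of genes measured in brackets. Liver and erythroid lists lie higher, and the neural and glial list lower, in the labelled p21-null arrays.

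Among the ligands, 12 of 18 had a negative difference and their median was −0.37. Wnt9a, a ligand best known from joints and skeleton, was at −1.21, 0.47, −1.12, −0.98 and −0.58 in wild-type replicates 1 to 5 and at −2.65, −0.95 and −2.52 in labelled p21-null replicates 1 to 3. Labelled p21-null replicates 1 and 3 were below every wild-type array, and replicate 2 lay among them. The difference was −1.35 with a standard error of 0.52, or 2.56-fold lower (limma adjusted p = 0.426), and −1.90 without replicate 2. Within slides 1, 2 and 3 it was −2.03, 0.03 and −1.94.

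The 2 ligands with established roles in nephric tubules had differences whose intervals include 0. Wnt9b was at −0.45, −1.94, −0.20, −2.00 and −1.57 in wild type and at −1.37, −2.40 and −2.49 in labelled p21-null, so the groups overlapped, with the lowest values in labelled p21-null replicates 2 and 3. Its difference was −0.86 with a standard error of 0.52 and a 95% interval of −2.04 to 0.32 (limma adjusted p = 0.652). Wnt4 was at 0.25, −0.67, −1.18, −1.69 and −0.61 in wild type and at −1.61, 0.73 and −1.52 in labelled p21-null. Its highest value of all 8 arrays was in labelled p21-null replicate 2, and the other arrays of that group were near the lowest. Wild type averaged −0.78 ± 0.72 (SD, n = 5) against −0.80 ± 1.33 (SD, n = 3), and the interval of the difference, −1.43 to 1.39, spans changes of either sign; without replicate 2 the difference was −0.79.

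Several epithelial ligands varied far more between arrays of 1 group than between groups; they were singled out after their values were seen. Wnt7b, a ligand of the collecting duct, was at 0.20, −3.30, −1.05, −0.81 and −1.01 in wild type and at −4.84, 1.10 and −3.34 in labelled p21-null. Wnt10a was at 0.20, −4.36, −2.73, −0.74 and −2.13 against −5.48, 0.32 and −4.69, and Wnt6, made by the ureteric bud and other epithelia, at 0.68, −1.20, −0.69, −0.43 and −1.64 against −2.20, 0.93 and −1.91. In each of these 3 genes the highest value was in labelled p21-null replicate 2, the next highest in wild-type replicate 1, and the lowest in labelled p21-null replicate 1. Their differences were −1.17, −1.33 and −0.40 over all arrays and −2.90, −3.13 and −1.40 without labelled p21-null replicate 2 (limma adjusted p = 0.259, 0.328 and 0.432). Wnt3 ran from not well above background in labelled p21-null replicates 1 and 3 to 0.13 in replicate 2, and from −1.25 in wild-type replicate 1 downward in the rest of that group. Epcam and Cdh1, epithelial adhesion genes of the tubule and duct list, were high in the same arrays: Epcam was at 2.25 in wild-type replicate 1 and 1.36 in labelled p21-null replicate 2 against −2.90 to 0.12 in the other six, and Cdh1 at −0.95 and −0.27 against −5.56 to −2.39. The part of epithelial content in the ligand values was not tested.

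**Figure D4:**
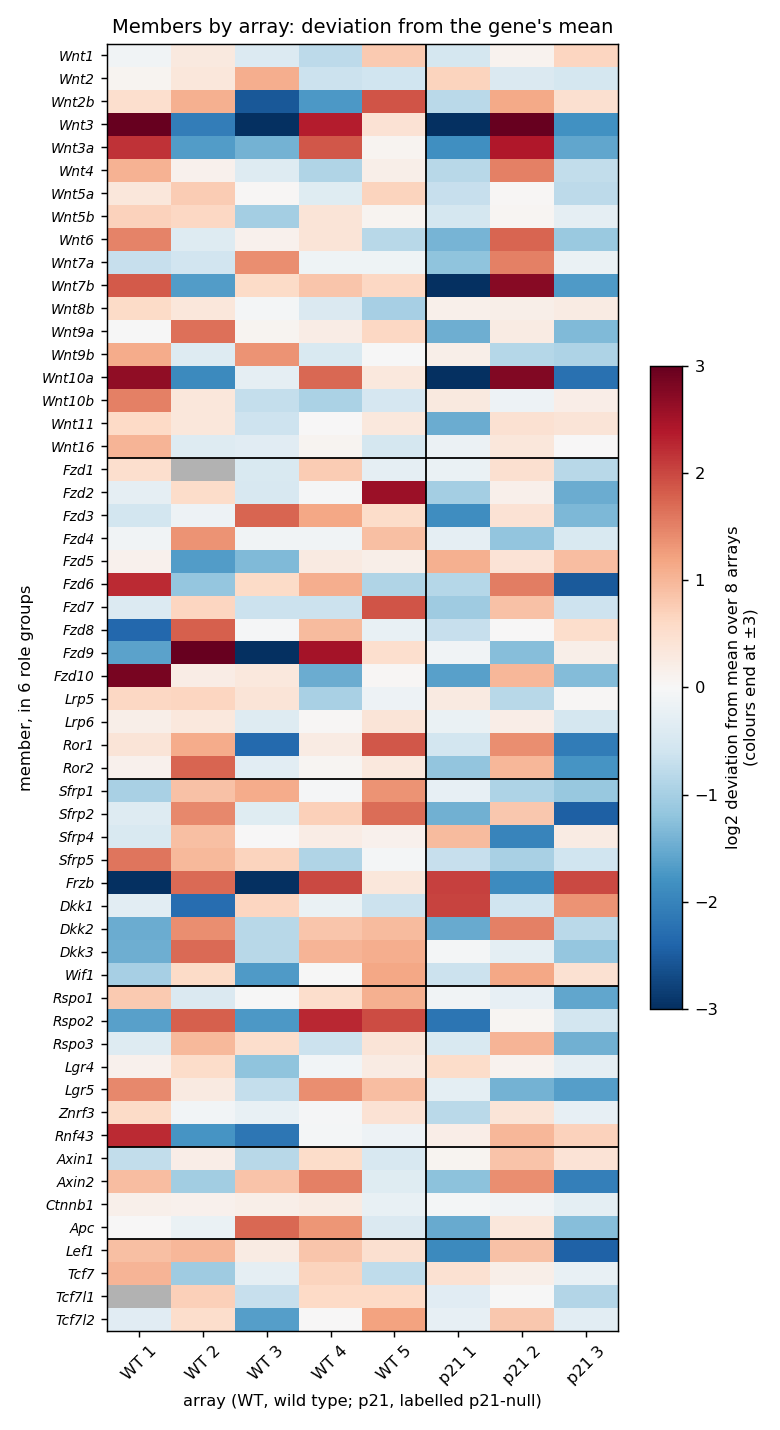
Log2 deviation of each member (row) from its own mean over the 8 arrays (columns), red above and blue below the mean, with colours ending at 3 on either side and grey for 2 spots left out as outliers; black lines divide the groups of arrays and the 6 role groups. Wnt3, Wnt6, Wnt7b and Wnt10a are red in WT 1 and p21 2 (replicates, as on the axis) and blue in p21 1 and p21 3; values of Wnt2b, Wnt3, Wnt3a, Frzb and Rspo2 include arrays not above background.

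Wnt6 and Wnt10a are neighbours among the protein-coding genes of chromosome 1 in the RefSeq table, and labelled p21-null replicate 2, wild-type replicates 1 and 4 were, in that order, the highest arrays for both, with labelled p21-null replicates 3 and 1 the lowest. Wnt3 and Wnt9b are neighbours on chromosome 11 and did not share a pattern: Wnt9b was at −2.40 in labelled p21-null replicate 2, where Wnt3 had its highest value. Wnt3a and Wnt9a, also neighbours on chromosome 11, differed by −0.54 and −1.35, and Wnt1 and Wnt10b, neighbours on chromosome 15, by 0.11 and 0.17. A second Wnt1 probe had the other sign, at −0.72 with a standard error of 0.61. The ligands linked to β-catenin-independent signalling had negative differences, each with an interval that includes 0. Wnt5a averaged −0.21 ± 0.44 (SD, n = 3) in labelled p21-null against 0.55 ± 0.46 (SD, n = 5) in wild type. Its difference was −0.76 (standard error 0.36), with an interval of −1.57 to 0.06. Wnt5b and Wnt11 differed by −0.40 (interval −1.36 to 0.56) and −0.33 (interval −1.46 to 0.8). The negative sign was not particular to these ligands, since 12 of all 18 ligands had it. Wnt2, Wnt7a, Wnt8b and Wnt16 differed by −0.15 to 0.30 and Wnt2b by 0.43, each with an interval that includes 0.

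Among the receptors 13 of 14 had a negative difference, the most one-sided of the 6 role groups by count, and 2 had an unadjusted p under 0.05, in opposite directions. Fzd4, a Frizzled that also serves the ligand norrin in blood vessels, was at −0.71, 0.74, −0.73, −0.73 and 0.29 in wild type and at −0.89, −1.81 and −1.08 in labelled p21-null. Every labelled p21-null array was below every wild-type array, although replicate 1 lay close beneath 3 of them, and replicate 2 was the lowest of all 8. The difference was −1.03 with a standard error of 0.45, or 2.05-fold lower (limma adjusted p = 0.484), and −0.66, −1.08 and −1.37 within slides 1, 2 and 3.

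Fzd5 was at 0.61, −1.20, −0.84, 0.74 and 0.66 in wild type and at 1.53, 0.88 and 1.41 in labelled p21-null, above every wild-type array. The difference was 1.28 with a standard error of 0.53, or 2.43-fold higher (limma adjusted p = 0.461). A second probe for Fzd5 gave a difference of 0.44 (standard error 0.56), and there the groups overlapped, since wild-type replicates 2 and 5 were at 0.99 and 1.66 on it. Quantile scaling, normexp correction and the deposited log2 values made that second probe the brighter one and gave 0.42, 0.39 and 0.38 for the gene.

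The other Frizzled genes differed by −1.47 (Fzd3) to −0.07 (Fzd8). Fzd3, needed for axon guidance and planar polarity, was at −1.69, −1.29, 0.59, 0.02 and −0.59 against −3.01, −0.70 and −2.49, a difference of −1.47 (standard error 0.66). As for Wnt9a, labelled p21-null replicates 1 and 3 were lowest and replicate 2 was within the wild-type range, and the difference was −2.16 without it. Fzd7 had probes that disagreed in sign, at −0.44 and 0.50, and Fzd2 had 1 high array, wild-type replicate 5 at 2.68, which the second Fzd2 probe showed at 0.13. The co-receptors differed by under 1 standard error: Lrp6 averaged 2.87 ± 0.31 (SD, n = 5) and 2.60 ± 0.37 (SD, n = 3), and Lrp5 1.25 ± 0.67 and 0.96 ± 0.59. Ror2, a receptor for Wnt5a, was at −0.56, 1.06, −1.0, −0.63 and −0.37 against −1.89, 0.29 and −2.46, a difference of −1.05, or −1.87 without replicate 2, and Ror1 differed by −0.67 with a standard error of 1.01.

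The secreted antagonists bind Wnt proteins or the co-receptors, and 6 of 9 had a negative difference, among them Sfrp1, Sfrp2, Sfrp4 and Sfrp5, whose products resemble the Wnt-binding part of Frizzled. Sfrp5 was at 0.17, −0.47, −0.77, −2.33 and −1.49 in wild type and at −2.12, −2.40 and −2.04 in labelled p21-null, a narrow low range that wild-type replicate 4 shared. The difference was −1.21 with a standard error of 0.53, or 2.31-fold lower (limma adjusted p = 0.487), and −1.77, −0.07 and −0.55 within slides 1, 2 and 3. Sfrp2, abundant in embryonic mesenchyme, was at 3.11, 4.94, 3.13, 4.21 and 5.18 against 2.07, 4.32 and 1.06, a difference of −1.63 (standard error 0.78), and of −2.55 without replicate 2. Sfrp1 differed by −1.24 with a standard error of 0.55, and Sfrp4 by −0.41 with 0.62.

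Dkk1, which blocks Lrp5 and Lrp6 and is itself a target of β-catenin, had the largest positive difference of the 56 genes. It was at −1.66, −3.63, −0.71, −1.56 and −2.00 in wild type and at 0.68, −1.94 and 0.00 in labelled p21-null, so that replicates 1 and 3 were above every wild-type array and replicate 2 was within their range. The difference was 1.49 with a standard error of 0.74, without reaching an unadjusted p under 0.05, and 2.25 without replicate 2 (limma adjusted p = 0.278). Dkk2 and Dkk3 differed by −0.44 and −0.80, Wif1 by 0.51 and Frzb by 1.15 with a standard error of 1.46; Frzb was above background on 3 of 5 wild-type arrays only.

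The R-spondin branch controls how many receptors reach the cell surface: R-spondins bind Lgr4 and Lgr5 and hold off Znrf3 and Rnf43, which remove Frizzled. Lgr5, both a receptor for R-spondins and a β-catenin target, was at −0.34, −1.51, −2.49, −0.38 and −0.85 in wild type and at −2.08, −3.20 and −3.43 in labelled p21-null. Labelled p21-null replicates 2 and 3 were below every wild-type array, and replicate 1 was above wild-type replicate 3 only. Wild type averaged −1.11 ± 0.90 (SD, n = 5) against −2.90 ± 0.72 (SD, n = 3), a difference of −1.79 (standard error 0.56), or 3.45-fold lower (limma adjusted p = 0.340). Within slides 1, 2 and 3 the difference was −0.63, −2.81 and −2.58. Without labelled p21-null replicate 2 it was −1.64, so this gene did not follow that array as Lef1 and Wnt9a did.

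None of the ligands of the branch reached an unadjusted p under 0.05. Rspo1, known from the developing ovary, averaged −3.89 ± 0.81 (SD, n = 3) against −2.87 ± 0.61 (SD, n = 5), a difference of −1.02 (standard error 0.47). Rspo3 differed by −0.46 with a standard error of 0.59, and Rspo4, from the second list, by 0.46 with 0.43. Rspo2 was kept through its wild-type arrays alone and had a measured mean of −7.06 in labelled p21-null and −5.64 in wild type, which bounds it at least 1.21-fold lower, the dim arrays being held no lower than the weakest signal above background (limma adjusted p = 0.745). A gene kept in that way had to lie lower in the dim group, so its direction supports nothing about the branch. Lgr4 and Znrf3 differed by 0.20 and −0.36, and Rnf43, itself a target, by 1.01 with a standard error of 0.89; its wild-type values ran from −2.82 to 1.59.

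Of the cytoplasmic genes, Ctnnb1, which encodes β-catenin, was nearly even. It was at 3.24, 3.22, 3.26, 3.33 and 2.88 in wild type and at 3.03, 2.99 and 2.79 in labelled p21-null, a difference of −0.25 with a 95% interval of −0.82 to 0.33 (limma adjusted p = 0.831). Axin2, a scaffold of the destruction complex that β-catenin induces, was at −0.48, −2.44, −0.56, 0.11 and −1.77 in wild type and at −2.64, 0.00 and −3.45 in labelled p21-null. On this brightest probe labelled p21-null replicates 1 and 3 were the lowest arrays and replicate 2 was among the highest. The difference was −1.0 with a standard error of 0.84 and an interval of −2.90 to 0.89 (limma adjusted p = 0.775), and it was −2.02 without replicate 2 and −0.29 without replicate 3. On a second Axin2 probe labelled p21-null replicates 1 to 3 were at −3.10, −1.83 and −2.77, and wild-type replicate 4 was at −2.93, below replicate 3. The difference on that probe was −1.10 with a standard error of 0.63. Axin1, which is not a target, differed by 0.70 with a standard error of 0.40, and Apc, of the same complex, by −1.30 and −1.11 on its 2 probes.

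Lef1 had the largest difference in size among the 56 genes. This DNA-binding partner of β-catenin was at −0.15, −0.05, −0.79, −0.20 and −0.56 in wild type, a narrow range, and at −2.96, −0.17 and −3.46 in labelled p21-null. Replicates 1 and 3 were far below every wild-type array, and replicate 2 lay within their range. Wild type averaged −0.35 ± 0.31 (SD, n = 5) against −2.20 ± 1.77 (SD, n = 3), a difference of −1.85 (standard error 0.67), or 3.60-fold lower (limma adjusted p = 0.40). It was −2.86 without replicate 2 and −1.22 without replicate 3, and −2.63, 0.03 and −2.90 within slides 1, 2 and 3. The other factors of the family differed less: Tcf7l1, mostly a repressor and read on 4 wild-type arrays, differed by −0.72 with a standard error of 0.44, Tcf7 by 0.21 and Tcf7l2 by 0.13, with its 3 probes at 0.13, −0.35 and 0.57.

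**Figure D5:**
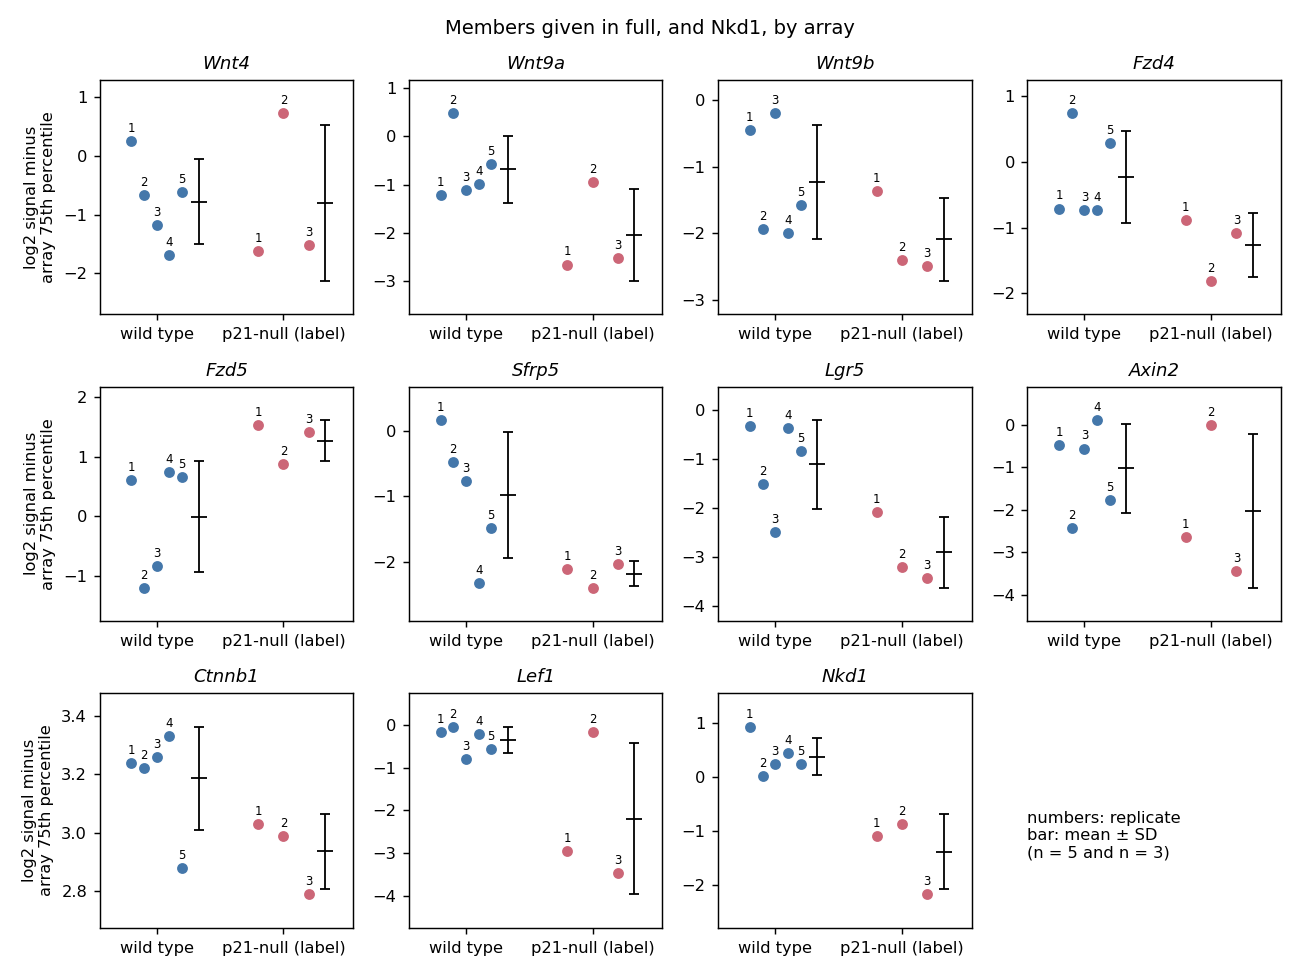
Log2 signal minus the array's 75th percentile in wild type (blue, n = 5) and labelled p21-null (red, n = 3) for the 10 members given in full and for Nkd1, with replicate numbers at the points and bars for mean ± SD. Lef1, Axin2 and Wnt9a have labelled p21-null replicate 2 within the wild-type range and replicates 1 and 3 below it, while Nkd1 is lower in all 3.

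Lef1, Axin2 and Dkk1 are β-catenin targets whose labelled p21-null replicates 1 and 3 lay apart from replicate 2, Lef1 and Axin2 below it and Dkk1 above it, so the bases before their start sites are shown, from RefSeq (GRCm38.p6). Each is the 250 bases before an annotated start, 5′ to 3′ on the gene's strand, and capitals mark CTTTGA or its reverse complement TCAAAG, the core letters of the TCF/LEF motif. Lef1 has 4 annotated starts, and the window shown is the most downstream, at chr3:131156044-131156293 on the plus strand; Axin2 is at chr11:108920099-108920348 on the plus strand and Dkk1 at chr19:30549497-30549746 on the minus strand.
Lef1: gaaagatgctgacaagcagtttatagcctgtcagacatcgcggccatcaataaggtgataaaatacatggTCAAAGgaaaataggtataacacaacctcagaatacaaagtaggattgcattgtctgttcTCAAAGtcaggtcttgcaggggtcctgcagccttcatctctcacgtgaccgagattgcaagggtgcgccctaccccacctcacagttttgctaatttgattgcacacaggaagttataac
Axin2: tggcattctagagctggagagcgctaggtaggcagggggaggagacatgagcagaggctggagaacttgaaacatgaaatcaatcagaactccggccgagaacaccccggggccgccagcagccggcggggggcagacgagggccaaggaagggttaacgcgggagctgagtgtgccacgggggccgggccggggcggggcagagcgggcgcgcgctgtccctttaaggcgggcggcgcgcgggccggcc
Dkk1: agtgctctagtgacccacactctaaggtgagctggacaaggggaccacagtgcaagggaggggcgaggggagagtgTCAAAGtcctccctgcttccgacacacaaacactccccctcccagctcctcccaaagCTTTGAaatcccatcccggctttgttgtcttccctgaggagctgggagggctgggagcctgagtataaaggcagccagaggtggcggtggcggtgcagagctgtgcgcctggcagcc

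The Lef1 window holds the core 2 times, both on the minus strand of the gene and starting 180 and 120 bases before the start, and the other 3 Lef1 windows hold none. The Dkk1 window holds it 2 times, 174 bases before the start on the minus strand of the gene and 117 bases before it on the plus strand, and the Axin2 window shows none of these letters. Both strands were searched and no other motif was. Of 56 members 38 had an entry, with 48 windows in all, and 7 windows (14.6%) held the core, against 13.8% of all 32851 windows. A match is a description of letters and not of binding.

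The other genes of the pathway, a second list of 46 chosen by role, were all tested. Of these, 33 (71.7%) had a negative difference, with a median of −0.39, and 11 (23.9%) had an unadjusted p under 0.05, 8 lower and 3 higher, against the background of 10.1% (3.91% lower, 6.20% higher). None passed the adjusted threshold, and the smallest adjusted p was 0.283. The count of 11 was 6 with slide as a block and 3 or 5 on leaving out labelled p21-null replicate 1 or 3. As shares of the 46 these are 13.0%, 6.52% and 10.9%, against 10.0%, 7.02% and 5.20% of all features in the same fits. Most of the distance from the background thus went with slide as a block, and none was left without replicate 1. In other fits it stayed: 28.3% against 11.3% without labelled p21-null replicate 2, and 32.6% against 16.7% with array weights. Leaving out a wild-type array gave 17.4% to 21.7%, against 8.96% to 11.1%. The groups did not overlap for 5 of the 46, all lower, against 2.44% of all features on that side.

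That smallest value belonged to Nkd1, a feedback inhibitor that binds Dishevelled and is induced by β-catenin. It was at 0.93, 0.02, 0.24, 0.44 and 0.24 in wild type and at −1.10, −0.88 and −2.18 in labelled p21-null, so that all 3 labelled p21-null arrays, replicate 2 included, were below every wild-type array. The difference was −1.76 with a standard error of 0.38, or 3.39-fold lower, and −1.50, −1.32 and −2.42 within slides 1, 2 and 3. Nkd2, its paralogue, differed by 0.17. Among other feedback genes and targets, Sp5 differed by −1.38 with a standard error of 0.89 and Ccnd1, encoding cyclin D1, by −0.17 with 0.35. Sost, an inhibitor of Lrp5 and Lrp6 and 1 of the 11, was at −1.94, −5.24 and −3.66 in labelled p21-null but above background on 2 of 5 wild-type arrays, where its signals ran from −7.71 to −5.22, so no exact difference is given. Apcdd1 was at −0.60, 2.10 and −2.35 in labelled p21-null, with replicate 2 again the high array, against 0.56 to 2.27 in wild type; it differed by −1.87, or −3.06 without replicate 2.

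The genes listed as cofactors, which mix partners of β-catenin with genes that oppose it, were lower for 7 of 9, beside 52.3% of all features. Pygo1, which tethers β-catenin to chromatin through Bcl9, differed by −1.89 (standard error 0.54, limma adjusted p = 0.312) and was above background on all wild-type arrays but on 2 of the other 3, and Ctnnbip1, which keeps β-catenin from TCF factors, by −1.11 with 0.34. Both had groups that did not overlap. Bcl9 was at −0.53, −0.90, −0.69, −0.46 and −2.62 against −3.74, −0.88 and −3.67, the split between replicates 1 and 3 and replicate 2 seen for Lef1, and differed by −1.73, or −2.67 without replicate 2. Porcn, the enzyme that adds the lipid to Wnt proteins, was at −2.08, −2.20, 0.46, −0.71 and −1.87 against −2.61, −2.48 and −3.55, lower in each labelled p21-null array. Wls, which carries Wnt proteins to the surface, differed by 0.13.

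Planar polarity genes, which orient cells within an epithelium, held 5 of the 11 (5 of 10 listed, beside 10.1% of all features), and no test set this group against the others. Vangl1 was at 0.34, 0.80, −0.44, −0.24 and 0.72 against 1.96, 0.75 and 2.07, a difference of 1.36 (standard error 0.44) and of 1.78 without replicate 2, and Daam1 differed by 0.94 with 0.38. Scrib differed by −0.60 with a standard error of 0.26, its groups not overlapping, and Prickle2 by −0.92 with 0.38. Celsr3, a cadherin of neurons, differed by −3.57 with a standard error of 1.54, and its wild-type values ran from −4.49 to 2.93. The 7 genes of the relay and destruction complex, among them Gsk3a, Gsk3b and the Dishevelled genes, differed by −1.06 to 0.05, with 0 at an unadjusted p under 0.05 in limma.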

How the data were processed

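The deposited scanner output holds, per the file headers, 1-colour spot intensity from Feature Extraction 10.7.3.1 (Agilent) on a linear scale, already corrected by the software for background and trends within the array but not between arrays. The table deposited by the authors holds log2 values; limma is named in the submitters' processing notes, and every column has a median of 9.26. From the processed intensity, log2 was taken minus each array's 75th percentile over spots that are not controls. Outlier spots were dropped, spots of a probe averaged, and a probe was kept when at least 3 of 8 arrays had it well above background. Accessions without versions were matched to RefSeq (GRCm38.p6), which named 26056 of 55681 probes; the brightest probe stood for a gene. Of the 56 members, 45 had 1 probe, 10 had 2 and 1 had 3. The comparison of 5 with 3 arrays used limma 3.58.1 (R 4.3.3) without covariates, and p-values were adjusted by Benjamini-Hochberg over 33623 features; the test was checked on simulated data. Local background averaged 38.0 to 44.1 on slide 1, read from the file names, and 91.3 to 135 on slides 2 and 3.

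Members and lists were chosen with earlier results of these data known. Values on every array were fixed for members at an unadjusted p under 0.05 or with groups that do not overlap, and for Axin2, Lef1, Wnt4, Wnt9b and Ctnnb1; others shown in full were chosen after their values were seen. Same-numbered replicates did not pair: the correlations of their deviations from group means were 0.07, −0.09 and −0.07. Alternatives were other scaling, background correction, filters, blocks, probe rules and weights, the deposited table, and leaving out each array. The planned mean spot intensity for normexp was replaced by the median, which these files hold.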

Additional observations from a re-analysis of the deposited data

Results flagged for a closer look

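In the wild-type group of 5, or 4 where a spot was left out, 3 of 56 members had an array whose gap to its nearest neighbour was a large part of the whole range by Dixon's test at the 95% level, which chance alone gives in about 1 of 20 groups. Wnt7a, a ligand of the Müllerian duct, was highest in wild-type replicate 3 at 0.17, the next value being −1.35. Tcf7l1 was lowest in the same array at −0.19, with the next at 1.09, and Ctnnb1 was lowest in wild-type replicate 5 at 2.88, with the next at 3.22. The median deviation of all members from their means was lowest in wild-type replicate 3, at −0.33 against 0.17 or more in the others.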

How the results depend on the processing

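The 56 genes were tested under 18 alternatives. Features at an adjusted p under 0.05 numbered 0, but 3 with normexp correction and 8 with array weights, and 0 to 1 on leaving out an array. Members at an unadjusted p under 0.05 numbered 6 in the main fit, 3 with quantile scaling and 4 with median scaling. They numbered 5 with the mean of all probes and 5 with the deposited table. The filter for all 8 arrays gave 9, normexp correction 10, the replicate block 10 and array weights 16. Slide as a block and no filter on dim probes left the count at 6, and leaving out an array gave 1 to 14. Members with groups that did not overlap numbered 2, but 1 with quantile scaling, 0 with median scaling, 1 with normexp correction, 1 with the mean of all probes, 1 with the deposited table and 6 with the replicate block, which keeps 3 wild-type arrays, and 2 to 16 on leaving out an array. The single array that gave 1 feature was wild-type replicate 4, and 4 members did not overlap on leaving out wild-type replicate 1, 3 or 4 or labelled p21-null replicate 1. The median difference of the members was −0.43 in the main fit and −0.77 with array weights. It was −0.56 with slide as a block, −0.33 with the replicate block, and between these with the other processing choices. Leaving out an array gave −0.77 to −0.28. Other pathway genes at an unadjusted p under 0.05 numbered 11, but 6 with slide as a block and 6 with the replicate block, and 3 to 13 on leaving out an array. Except where a changed number of arrays shows it, the cause was not tested.

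The difference of Wnt4 turned positive with quantile scaling (0.03), with median scaling (0.04), and without a single array in a range of −0.79 to 0.39. Each other gene tested this way kept its sign under every alternative that measured it; the filter for all 8 arrays left out Pygo1 and Sost. Lgr5, Nkd1 and Ctnnbip1 had an unadjusted p under 0.05 in all 19 fits, main and alternative. Their lowest adjusted p-values in limma were 0.0925, 0.0788 and 0.110. Pygo1 was under 0.05 in all 18 fits that measured it, and Lef1 and Sost in 17 fits each. The lowest adjusted p-values of these genes in limma were 0.0912, 0.117 and 0.111. The replicate block put no tested gene past the adjusted threshold. Without 1 of the 3 labelled p21-null arrays that group rests on 2.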
